A study of Mus musculus with 2 samples.

Results

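The genes of 10 enzymes of triglyceride synthesis were compared in perigonadal white adipose tissue (WAT) of PeriA Tg and WT mice. They were chosen by name: the glycerol-3-phosphate acyltransferases *Gpam* and *Gpat3*, the lysophosphatidate acyltransferases *Agpat1*, *Agpat2* and *Agpat3*, the lipins *Lpin1* and *Lpin3*, the monoacylglycerol acyltransferase *Mogat1* and the diacylglycerol acyltransferases *Dgat1* and *Dgat2*. Every probe set that the annotation of the array gives to one of these symbols alone was read, which made 18 of the 45037 probe sets other than controls and 10 of 18193 named genes. The PeriA Tg mice were heterozygous for a human perilipin A transgene, driven by the promoter and enhancer of aP2, the fatty acid-binding protein gene of adipocytes, which is also active in brown fat. WT mice were littermates without it. All were C57BL/6 females, 30 weeks old, fed a high-fat diet (HFD) and fasted overnight before harvest. RNA of 3 mice per genotype was pooled and hybridised to 1 array, so that the study has 1 PeriA Tg array and 1 WT array. With no replicates, the spread between mice is unknown and no difference between the genotypes could be tested.

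The glycerol phosphate pathway adds fatty acids to a glycerol backbone step by step. GPAT enzymes attach the first acyl chain to glycerol 3-phosphate, AGPAT enzymes attach the next and make phosphatidate, lipins remove the phosphate to give diacylglycerol, and DGAT enzymes attach the last chain. MOGAT enzymes reach diacylglycerol by another route, from monoacylglycerol. In adipocytes the product is stored in the lipid droplet that perilipin coats, and in humans loss of AGPAT2 causes congenital generalised lipodystrophy.

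The values are MAS5 signals, the brightness of a probe set on a linear scale in arbitrary units, after each array was scaled as a whole. The signal log ratio is the log2 of the Tg signal over the WT signal, so that a value over 0 means a higher signal on the PeriA Tg array. The study's methods select probe sets over 0.3 or under -0.3, and the same limits are used here as a description. As a filter, a probe set had to reach 98.2, the median of all signals, on at least 1 of the arrays. All 18 probe sets passed, of which *Lpin3* and the dimmest of *Agpat3* had no signal over 139.3. A gene was read from its brightest probe set. Signals of different probe sets are not comparable as amounts of mRNA, so that only the ratios between arrays are compared.

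Of the 10 genes, 5 had a signal log ratio over 0.3 (*Mogat1*, *Gpat3*, *Gpam*, *Lpin1* and *Agpat2*), 2 were under -0.3 (*Agpat1* and *Lpin3*) and 3 lay between (*Agpat3*, *Dgat1* and *Dgat2*). Among all 11587 genes that passed the filter, 16.6% were over 0.3 and 16.9% were under -0.3. The median signal log ratio of the 10 genes was 0.35, beside 0.02 over all genes. Past a 2-fold change were *Mogat1* and *Gpat3* on the higher side and *Lpin3* on the lower side, beside 1.02% of all genes over 1 and 1.87% under -1. Of the 18 probe sets, 8 were over 0.3 and 5 under -0.3, beside 17.8% and 21.5% of all 23713 passing probe sets. Past a 2-fold change were 2 of the 18 on each side, beside 1.28% of all passing probe sets over 1 and 3.12% under -1. Both on the lower side, that of *Lpin3* and the dimmer of *Agpat1*, passed the filter through the WT array alone. The median of the 18 was 0.21. Median centring of the arrays placed 6 of the 10 genes over 0.3, with *Agpat3* at 0.36, beside 24.9% of all genes. Of the genes past either limit, 65.6% were then over 0.3, instead of 49.6%.

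**Figure D1:**
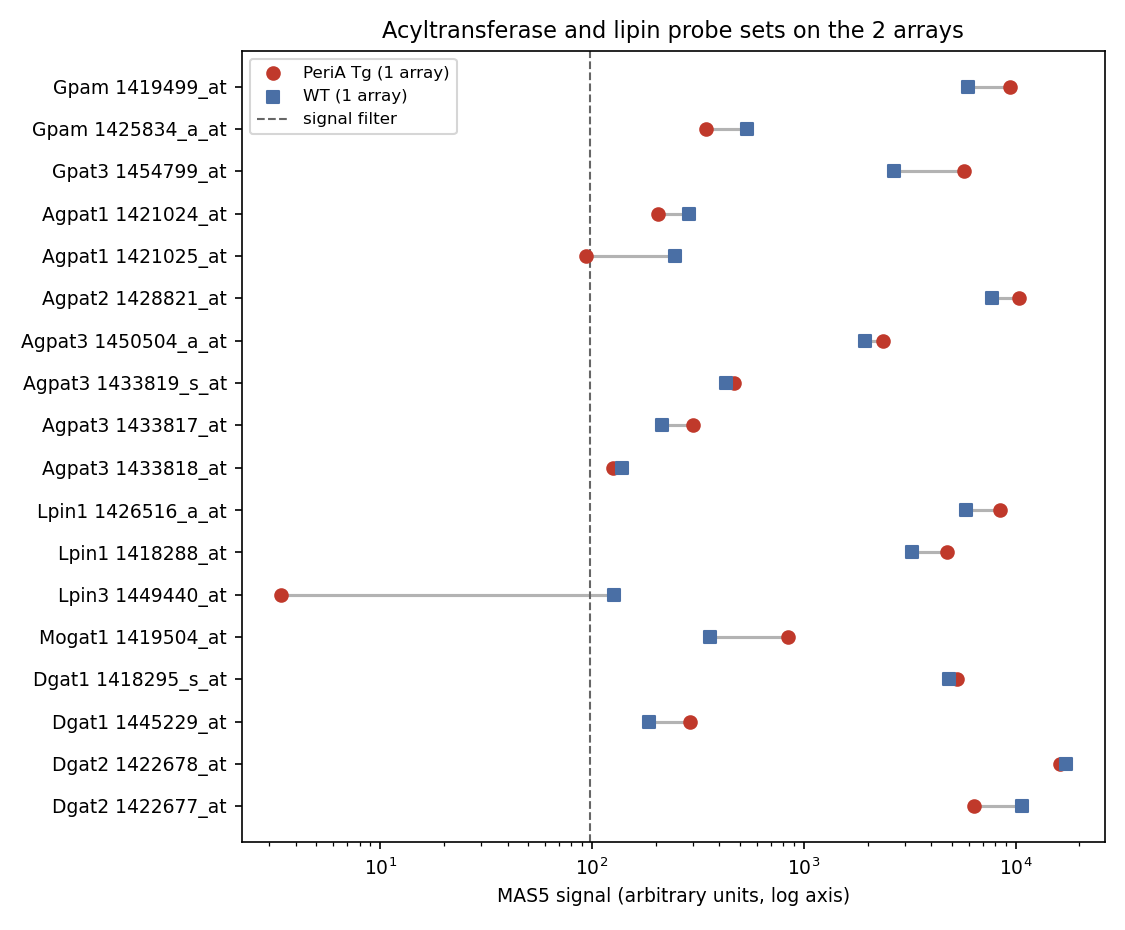
MAS5 signal (log axis, arbitrary units) of each of the 18 probe sets on the PeriA Tg array (circles) and the WT array (squares), 1 array of pooled RNA per genotype, with the signal filter of 98.2 as a dashed line. *Mogat1*, *Gpat3* and both *Lpin1* probe sets have the higher signal on the PeriA Tg array, and the *Lpin3* probe set has 3.40 on the PeriA Tg array and 127.1 on the WT array.

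The first step is made by GPAT isoenzymes in different membranes. *Gpat3* encodes the isoform of the endoplasmic reticulum that provides much of the GPAT activity of mouse adipocytes. Its single probe set read 5734 on the PeriA Tg array and 2655 on the WT array, a ratio of 2.16 and a signal log ratio of 1.11. This was rank 89 from the top among the 11587 genes, and only 0.362% of the 7180 genes with a signal of at least 470.5 were over 1. *Gpam* encodes GPAT1 of the outer mitochondrial membrane. Its brightest probe set (1419499_at) had 9376 in Tg and 5985 in WT, a signal log ratio of 0.65. Its other probe set (1425834_a_at), whose suffix marks probes shared by alternative transcripts of a gene, went the opposite way, with 345.4 in Tg and 538.0 in WT, a signal log ratio of -0.64. The direction of *Gpam* therefore depends on the probe set that is read, and the distance of 1.29 between them was wider than in 93.3% of the 5260 genes that had 2 or more passing probe sets. *Gpat3* exceeded the brightest probe set of *Gpam* by 0.46. *Gpat4*, the close relative of *Gpat3* in the same membrane, had 656.1 in Tg and 570.4 in WT, a signal log ratio of 0.20.

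The 3 AGPAT genes did not share a direction. *Agpat2*, the isoform of the endoplasmic reticulum whose loss causes the human lipodystrophy, had 10400.5 in Tg and 7735 in WT on its only probe set, a signal log ratio of 0.43. *Agpat1*, which catalyses the same reaction, was lower on the PeriA Tg array on both of its probe sets. The brighter one had 204.5 in Tg and 286.9 in WT (-0.49), and the other had 93.8 in Tg and 246.0 in WT (-1.39). Both are annotated to the same source sequence, and the Tg signal of the dimmer one was under the filter. The signal log ratio of *Agpat2* exceeded that of *Agpat1* by 0.92.

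*Agpat3*, which also acylates other lysophospholipids, was the gene with most probe sets. Its brightest had 2355 in Tg and 1944 in WT, a signal log ratio of 0.28, just inside the limit. The other 3 had 0.13 (469.7 in Tg and 430.5 in WT), 0.48 (299.1 in Tg and 214.9 in WT) and -0.15 (125.5 in Tg and 139.3 in WT). These 3 probe sets are annotated to 1 source sequence and yet lay on both sides of 0. The related *Agpat4* was lower on the PeriA Tg array on both of its probe sets, with -0.76 and -0.65, and *Agpat5* had -0.13 on its brightest.

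Lipins are the phosphatidate phosphatases of the next step, and lipin 1 also acts in the nucleus as a coactivator with PGC-1α and PPARα. *Lpin1* gave the closest agreement between probe sets of these genes. One probe set (1426516_a_at) had 8395 in Tg and 5822 in WT, and the other (1418288_at) had 4724 in Tg and 3246 in WT. Their signal log ratios were 0.53 and 0.54, a distance of 0.014, and only 1.54% of such genes had a smaller one. *Lpin2* had 0.08 on its brightest probe set, with 484.5 in Tg and 458.2 in WT. Its other passing probe set was on the other side of 0, with 251.1 in Tg and 307.8 in WT (-0.29).

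*Lpin3*, the lipin of gut and liver in mice, had a signal of 3.40 in Tg and 127.1 in WT on its only probe set, a signal log ratio of -5.22. It passed the filter through the WT array alone, and the size of this value rests on the small Tg signal, which is far under the filter. With signals under 56.9, the 40th percentile of all signals, raised to that floor, the signal log ratio was -1.16, a 2.23-fold lower signal in Tg, and with a pseudocount of 25.1 it was -2.42. The WT signal was itself near the filter, and *Lpin3* did not pass a filter at 470.5.

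**Figure D2:**
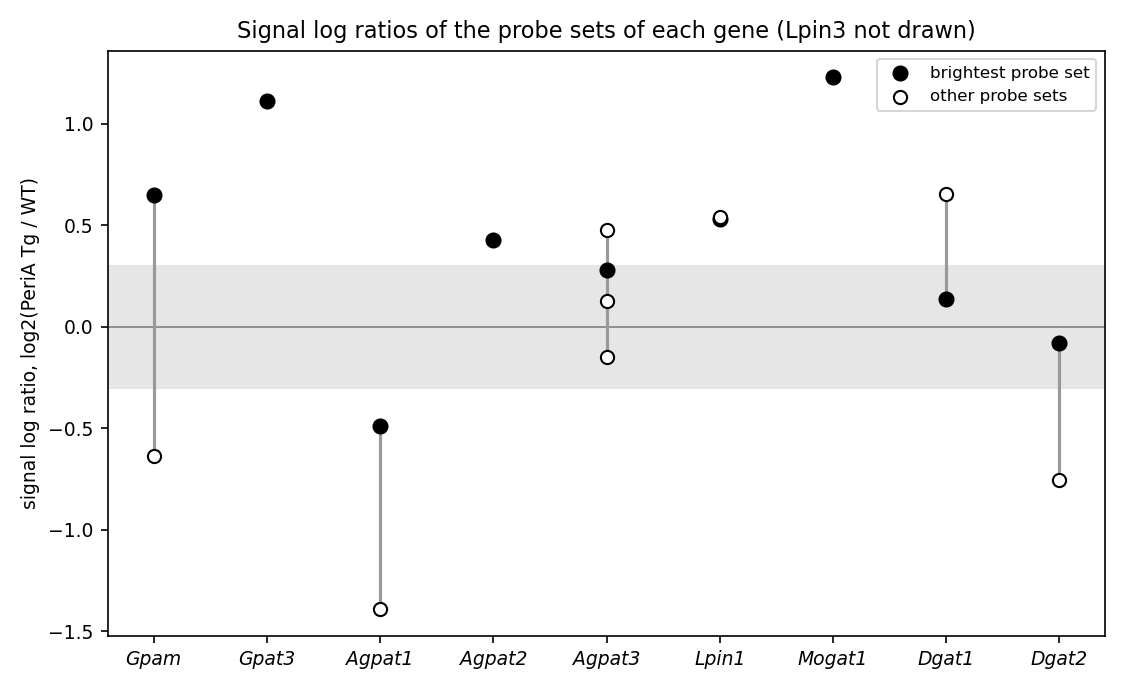
Signal log ratio (log2 of Tg over WT) of every probe set of 9 genes, with the brightest probe set filled and the others open. The grey band covers -0.3 to 0.3, and *Lpin3*, at -5.22, is not drawn. The probe sets of *Lpin1* coincide, those of *Gpam* lie at 0.65 and -0.64, and those of *Dgat2* at -0.08 and -0.75.

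The highest signal log ratio of the 10 genes was that of *Mogat1*, an acyltransferase of the DGAT2 family that makes diacylglycerol from monoacylglycerol. Its only probe set had 845.1 in Tg and 360.8 in WT, a ratio of 2.34 and a signal log ratio of 1.23, rank 66 from the top. Across median centring, quantile normalization, loess, a pseudocount and a floor, *Mogat1* stayed between 1.17 and 1.31 and *Gpat3* between 1.09 and 1.19. *Mogat2*, the intestinal isoform, was on the other side, with 419.5 in Tg and 634.9 in WT (-0.60). *Mogat1* exceeded *Mogat2* by 1.83.

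The last acyl chain is attached by DGAT1 and DGAT2, which share the reaction but belong to different protein families. The brightest probe set of *Dgat1* (1418295_s_at) had 5312 in Tg and 4832 in WT, a signal log ratio of 0.14. Its suffix marks probes that can bind several transcripts. The other probe set (1445229_at), with no such suffix, was dimmer and had 291.5 in Tg and 185.1 in WT, a signal log ratio of 0.66. Both probe sets of *Dgat1* thus had the higher signal in Tg, but only the dimmer was over 0.3. By real-time PCR on WAT, the study instead reported *Dgat1* significantly lower in Tg, and *Dgat2* tending lower.

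*Dgat2*, which the study itself listed as lower in Tg from these arrays, showed the reverse of the probe set pattern of *Dgat1*. Its brightest probe set (1422678_at) had 16266 in Tg and 17199 in WT, a signal log ratio of -0.08 that became 0.003 after median centring. The other (1422677_at) had 6365 in Tg and 10735 in WT, a signal log ratio of -0.75 and a 1.69-fold lower signal in Tg. Both are annotated to the same source sequence. In the genes at large, the brightest and the next probe set differed by a median of 0.22 where they shared their source sequence (1640 genes) and of 0.25 where they did not (2796 genes). The *Dgat2* distance of 0.67 was wider than in 72.3% of the genes with several passing probe sets.

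Of the 6 genes with several probe sets, 4 had all of them on the same side of 0 (*Agpat1*, *Lpin1*, *Dgat1* and *Dgat2*), beside 48.6% of the 5260 genes. Only *Agpat1* and *Lpin1* had all probe sets in the same class of over 0.3, under -0.3 or between, beside 42.1% of genes. All of the 6 but *Agpat3* have 2 probe sets, whereas the 5260 genes have 2 or more. These shares, and those of genes with a smaller distance, depend on the number of probe sets per gene, which was not matched. The signal log ratios within a gene had a pooled SD of 0.48 for these 6 genes and 0.41 for all 5260. It covers readings of the same RNA pools and neither mice nor hybridisations. The limit of 0.3 is smaller than this spread, and the 6 genes differed widely in it, with an SD of 0.91 for *Gpam* and 0.64 for *Agpat1* and the least for *Lpin1*. *Mogat1*, *Gpat3*, *Agpat2* and *Lpin3* have a single probe set, so that no such spread was measured for them.

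A difference between the arrays stands beside these distances. For the bacterial poly-A controls, labelled together with the sample RNA, the 5' probe sets had a lower signal log ratio than the 3' probe sets. This held in 8 of 8 pairs, with a median of -0.55. The hybridisation controls, added after labelling, had a median of -0.005 over 8 pairs. In both kinds, pairs repeat the same spiked transcripts, as the DapX and r2-Bs-dap pairs do (both -0.50), so that the 8 pairs are not 8 separate controls. For 5 mouse control transcripts the 5' value was lower in 4, with a median of -0.25. Of 8 dimmer probe sets of these enzymes, 5 had a lower signal log ratio than the brightest of their gene, with a median of -0.29, beside 59.3% and -0.08 over 8796 dimmer probe sets of all genes. Where the probes lie along the transcripts was not analysed here, and the part of this difference in the values of *Gpam*, *Agpat1* and *Dgat2* was not tested.

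**Figure D3:**
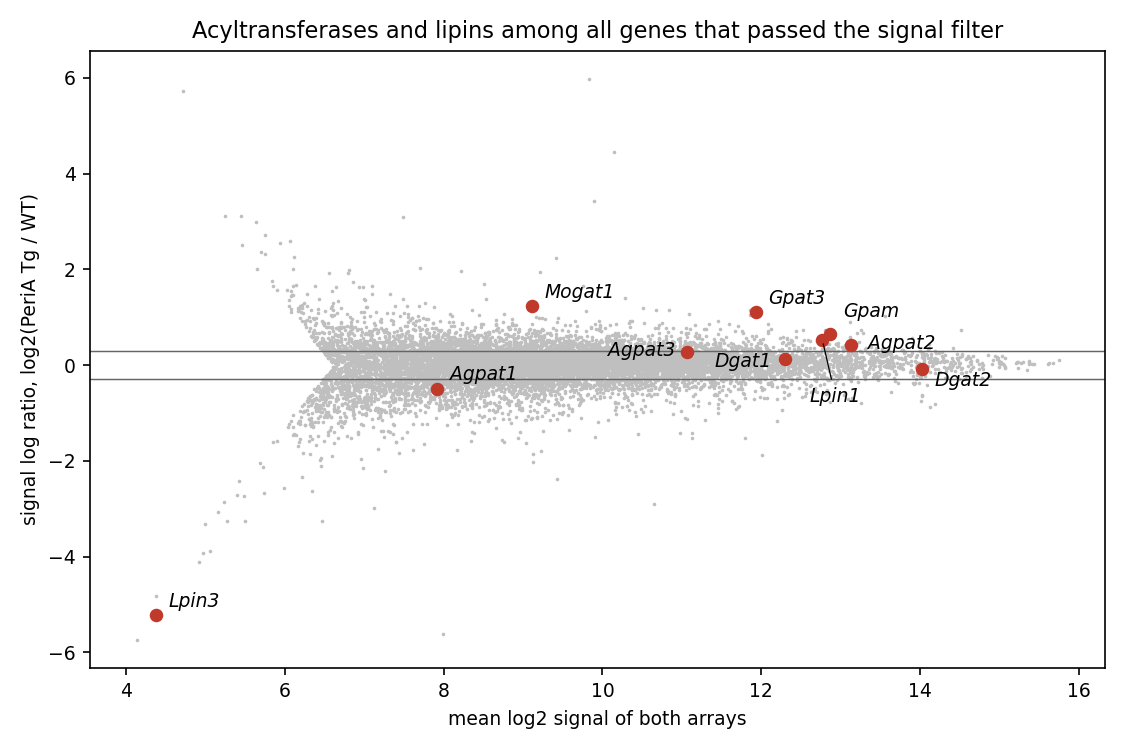
Signal log ratio (log2 of Tg over WT, vertical) and mean log2 signal (horizontal) of the 11587 genes that passed the filter, each gene drawn as a point and read from its brightest probe set, with lines at 0.3 and -0.3. *Gpat3* and *Mogat1* lie over the cloud at their signals, *Dgat1* and *Dgat2* lie inside the band, and *Lpin3* stands at the lower left, where signals are small and the scatter is wide.

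Promoter windows are shown for the 3 genes past a 2-fold change, so that their start regions can be compared. RefSeq windows of GRCm38.p6, from 250 bases before to 50 bases after a transcript start, matched 8 of the 10 genes with 11 windows, and *Dgat1* and *Dgat2* had none. The letters searched on both strands were CACGTG (E-box), GGGCGG (GC box), CCAAT (the site of NF-Y), TATAAA (core promoter box), AGGTCA (nuclear receptor half-site), TCACNCCAC (sterol response element) and TGACG (cyclic AMP half-site). Matches are in capitals, read 5′ to 3′ on the strand of the gene, so that CCAAT on the other strand appears as ATTGG and TGACG as CGTCA. A match describes the letters and not a bound site.
Mogat1, chr1:78510810-78511109, plus strand: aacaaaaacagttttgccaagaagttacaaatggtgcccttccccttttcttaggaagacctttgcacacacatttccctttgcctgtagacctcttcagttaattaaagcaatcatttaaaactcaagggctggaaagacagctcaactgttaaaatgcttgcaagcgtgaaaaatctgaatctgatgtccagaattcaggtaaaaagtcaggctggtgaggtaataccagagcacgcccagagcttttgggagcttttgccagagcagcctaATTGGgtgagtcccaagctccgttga
Gpat3, chr5:100845979-100846278, plus strand: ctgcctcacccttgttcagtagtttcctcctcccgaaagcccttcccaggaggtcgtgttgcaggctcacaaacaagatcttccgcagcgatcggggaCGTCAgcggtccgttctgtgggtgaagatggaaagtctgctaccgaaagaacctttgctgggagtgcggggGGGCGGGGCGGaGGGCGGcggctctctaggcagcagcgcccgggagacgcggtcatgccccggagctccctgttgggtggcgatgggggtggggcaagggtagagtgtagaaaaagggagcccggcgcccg
Lpin3, upstream start, chr2:160880420-160880719, plus strand: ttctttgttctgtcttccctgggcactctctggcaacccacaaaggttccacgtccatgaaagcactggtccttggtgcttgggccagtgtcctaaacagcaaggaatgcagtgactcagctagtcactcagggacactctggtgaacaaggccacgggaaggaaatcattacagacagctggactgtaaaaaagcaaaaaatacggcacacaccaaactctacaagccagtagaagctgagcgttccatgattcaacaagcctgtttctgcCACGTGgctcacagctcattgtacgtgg
Lpin3, downstream start, chr2:160887918-160888217, plus strand: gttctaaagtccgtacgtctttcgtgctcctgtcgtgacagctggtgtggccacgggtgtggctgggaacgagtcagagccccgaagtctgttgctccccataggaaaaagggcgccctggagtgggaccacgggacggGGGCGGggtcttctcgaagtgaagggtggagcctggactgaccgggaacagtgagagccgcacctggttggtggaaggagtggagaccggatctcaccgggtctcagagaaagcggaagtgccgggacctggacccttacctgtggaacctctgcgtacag

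The windows of *Mogat1* and *Gpat3*, the genes with the highest ratios, had little in common. *Mogat1* had 43.7% G and C, 3 CpG and 1 CCAAT, whereas *Gpat3* had 64.3% G and C, 23 CpG, 3 GC boxes, of which 2 overlap in 1 base, and 1 cyclic AMP half-site. Over all 32851 windows, the median was 52.7% G and C and 7 CpG. A CCAAT was present in 37.4% of all windows, a GC box in 35.7%, and a cyclic AMP half-site in 20.8%. The E-box of the upstream *Lpin3* window, present in 7.15% of all windows, was the only one in the 11 windows of these genes. No window of the 11 held the sterol response element or TATAAA, which were present in 1.24% and 13.6% of all windows. The nuclear receptor half-site, in 16.3% of all windows, was present in windows of *Lpin1*, *Gpam* and *Agpat1*.

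Upstream of the acyltransferases, glycerol 3-phosphate is made from glycolysis by *Gpd1* or in glyceroneogenesis with *Pck1*, and consumed by the mitochondrial *Gpd2*. Of 7 listed genes of this supply, 6 had a probe set annotated to their symbol alone and 5 passed the filter, of which 2 were over 0.3 and 1 under -0.3, with a median of 0.16. *Gpd2* had 2435 in Tg and 1098 in WT (1.15), and its other 2 passing probe sets had 1.10 and 1.15. *Gpd1* had 2801 in Tg and 4521 in WT (-0.69), and its other passing probe sets had -1.01 and -0.01. *Pck1*, the phosphoenolpyruvate carboxykinase, had 8527 in Tg and 6250 in WT (0.45), but -0.80 on its other passing probe set. *Gpd1l* and *Aqp7*, the glycerol channel of adipocytes, had 0.16 and -0.05, but -0.47 and -0.46 on their other passing probe sets.

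Of 13 enzymes related to the 10, 8 had such a probe set and 7 passed, with none over 0.3 and 3 under -0.3, and their median was -0.13. These 3 were *Agpat4*, *Mogat2* and *Lpgat1*, a lysophosphatidylglycerol acyltransferase, with 13443 in Tg and 20661 in WT (-0.62) and between -0.90 and -0.51 on its other 3 passing probe sets. Of 19 listed enzymes that draw on phosphatidate and diacylglycerol for phospholipids and signalling, 14 passed, 2 were over 0.3 and 4 under -0.3, and the median was -0.07. *Selenoi*, the ethanolaminephosphotransferase, had the highest value with 0.49, and -0.64 and 0.26 on its other passing probe sets. *Dgke*, a diacylglycerol kinase, had the lowest with -0.48, but 0.31 and 0.43 on its others. *Plpp2* and *Dgkz*, a lipid phosphate phosphatase and another diacylglycerol kinase, had -0.37 and -0.36, and *Dgkz* had -0.15 on its other passing probe set. The partners of lipins and AGPAT2 that passed were seipin (*Bscl2*, -0.18) and the lipin phosphatase subunits *Ctdnep1* (-0.03) and *Cnep1r1* (-0.01), all inside the band.

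**Figure D4:**
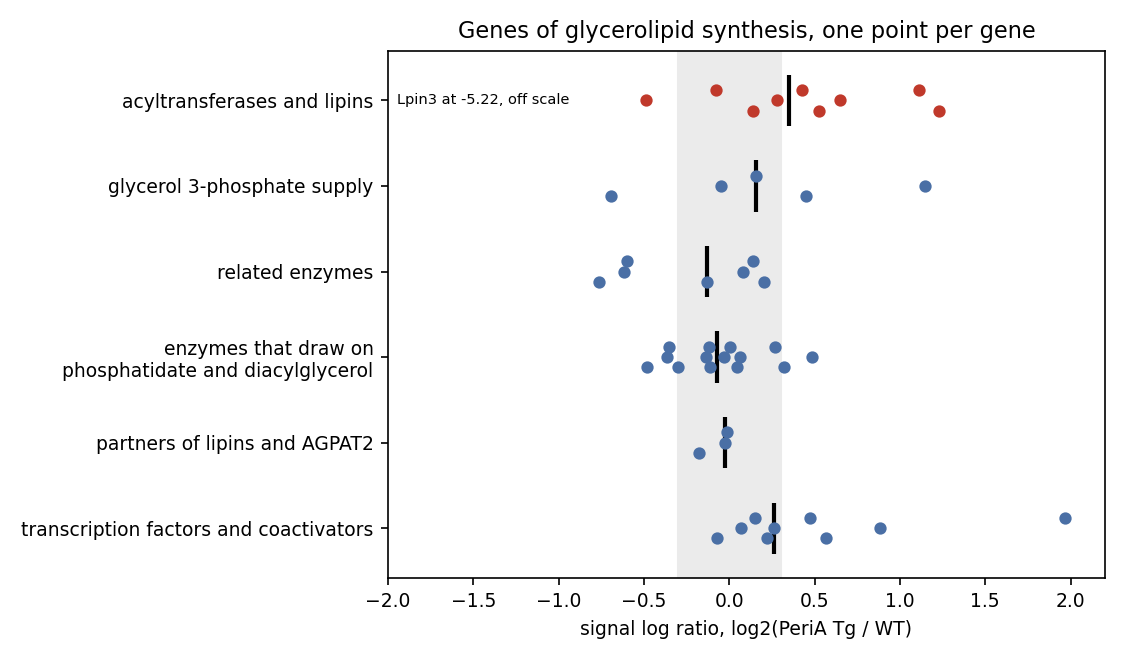
Signal log ratio (log2 of Tg over WT) of passing genes of the pathway, each point a gene read from its brightest probe set, with the median of each list as a vertical bar and a grey band from -0.3 to 0.3. The medians are 0.35 for the acyltransferases and lipins (red) and -0.13 for the related enzymes, and *Ppara*, at 1.97, is the rightmost point among the transcription factors. Points of a list are spread vertically for legibility only.

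Of 9 transcription factors and coactivators known to act on these genes or with lipin 1, all passed the filter, 4 were over 0.3 and none under -0.3, with a median of 0.26. *Ppara*, a nuclear receptor of fatty acid oxidation, had 591.0 in Tg and 151.2 in WT (1.97), and 1.45 and 2.49 on its other probe sets. *Ppargc1b* had 0.88, and *Pparg*, the master regulator of adipocytes and a regulator of lipid storage genes, had 6234 in Tg and 4204 in WT (0.57). *Ppargc1a* had 0.47 at signals of 138.7 in Tg and 100.1 in WT. Its other passing probe set had 1.01, with 100 in Tg and 49.7 in WT, and passed through the PeriA Tg array alone. *Srebf1*, which drives lipogenic genes under insulin, had 0.26.

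The labelled tissue was checked by its markers. Adipocyte genes were bright on both arrays, with *Adipoq* at 43803 in Tg and 41052 in WT, and the median of 13 mature adipocyte markers was 0.11, with 3 over 0.3 and 1 under -0.3. Brown adipocyte genes were on the same side as *Gpat3* and *Mogat1*: of 11 listed, 9 passed and all 9 were over 0.3, with a median of 2.56. Of these 9, *Elovl3* (523.7 in Tg and 61.5 in WT) and *Dio2* (149.2 in Tg and 25.3 in WT) passed through the PeriA Tg array alone. The median is the value of *Dio2*. The signals of all 11 summed to 27928 in Tg and 5128 in WT, sums in which the brightest probe sets weigh most. Under the filter on both arrays were *Zic1*, with 11.0 in Tg and 12.9 in WT, and *Lhx8*, with 13.8 in Tg and 1.6 in WT. Of 15 macrophage markers, 8 were under -0.3 and none over 0.3, with summed signals of 59793 in Tg and 77821 in WT. Medians were -0.08 for 8 endothelial, -0.01 for 8 fibroblast and 0.25 for 6 mesothelial markers. Lymphocyte markers (6 of 8 passing) had a median of -0.36 and skeletal muscle markers (4 of 11 passing) -0.72. These medians include genes that passed through the WT array alone: *Cd8a* of the lymphocyte markers, and *Mylpf*, *Tnni2* and *Pvalb* of muscle. The remaining muscle marker, *Acta1*, had 5353 in Tg and 5451 in WT (-0.03). Of 8 epithelial markers, 2 passed, *Krt18* with 0.60 and *Krt8* with 0.17, and the signals of the other 6, *Epcam*, *Cdh1*, *Cldn3*, *Cldn4*, *Muc1* and *Vil1*, were under the filter on both arrays. Of 5 hepatocyte markers, only *Alb* passed, with 0.51. In bulk tissue, fewer cells of a type and less RNA per cell cannot be told apart, and the part of these cell types in the values of the 10 genes was not tested.

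**Figure D5:**
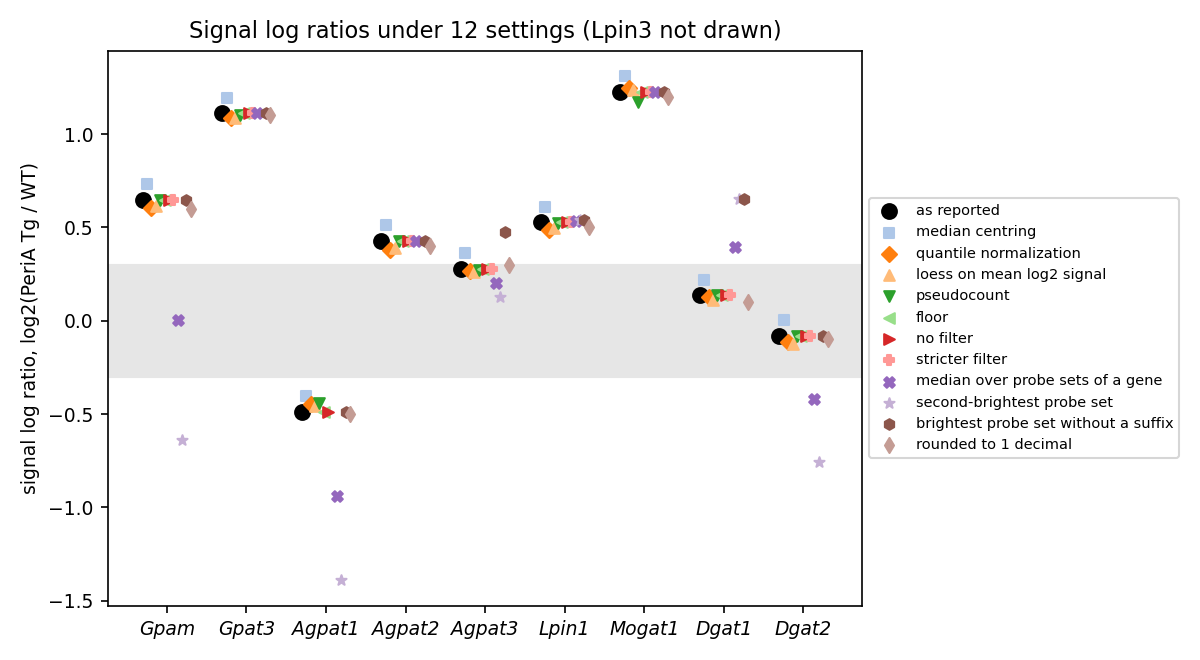
Signal log ratio (log2 of Tg over WT) of 9 genes as reported and under 11 alternatives of scaling, low signals, filter, choice of probe set and rounding, with a grey band from -0.3 to 0.3 and *Lpin3* left out. *Lpin1* lies over 0.3 in every setting drawn, also on its second-brightest probe set, *Gpam*, *Dgat1* and *Dgat2* move with the probe set that is read, and *Gpat3*, *Mogat1* and *Agpat2*, over 0.3 wherever drawn, have 1 probe set each, so that the choice of probe set cannot move them.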

How the data were processed

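Total RNA of perigonadal WAT was pooled from 3 HFD-fed mice per genotype, labelled with biotin and hybridised to Affymetrix mouse genome arrays. The deposited values are intensities that the authors obtained with GeneChip Operating Software, and the submitters' processing notes name MAS5, which sets perfect-match against mismatch probes and can give very small signals. The 2% trimmed mean was 500.0 on both arrays. Detection calls were not used here. Of 45101 probe sets, 64 controls were left out of genes, 34945 had 1 symbol in the platform annotation, 932 several, and 9160 were not listed there. A gene took the value of the probe set with the highest mean log2 signal. With 1 array per genotype no test was possible, and the number of arrays limits the precision.

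The genes, lists and limits were chosen with earlier results of these data known. Named were all 10 genes with every probe set, up to 4 passing genes of each pathway list with the largest absolute ratios, and markers as groups. *Agpat5*, *Lpin2*, *Srebf1*, *Aqp7* and the single markers were named after their values were seen. Alternatives were median centring, quantile normalization, loess (span 0.3), a pseudocount of 25.1, a floor of 56.9, no filter, a filter at 470.5, the median, second-brightest or unsuffixed probe set, limits of 1 and -1, and rounding to 1 decimal. The software was Python 3.11.15 (numpy 2.4.6, scipy 1.17.1, pandas 2.3.3), with matplotlib 3.10.9 for figures and statsmodels 0.14.6 for loess.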

Additional observations from a re-analysis of the deposited data

How the results depend on the processing

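The count of 5 genes over 0.3 stayed between 5 and 7 under all scalings, filters, the floor, the pseudocount, rounding, the median over probe sets and the unsuffixed probe set. Over all genes, the share over 0.3 in these settings ran from 13.1% with rounding to 24.9% with median centring. The genes counted changed with the median over probe sets, where *Gpam* fell to 0.004 and *Dgat1* rose to 0.40. Read from the second-brightest probe set, which 6 of the 10 genes have, 2 genes were over 0.3 and 3 under -0.3, beside 17.0% and 25.8% of all genes read in that way. The median of these 6 was -0.26, beside -0.03 over all genes read in that way. The median of 0.35 on the brightest probe sets also covers *Mogat1*, *Gpat3*, *Agpat2* and *Lpin3*, which have no second probe set. On their brightest probe sets, the middle values of the 6 genes were 0.14 (*Dgat1*) and 0.28 (*Agpat3*), so that the direction of the median turned. *Gpam* had -0.64 on its second-brightest probe set. At limits of 1 and -1, 2 genes were over and 1 was under, beside 1.02% and 1.87% of all genes. With the filter at 470.5, 8 genes were left and 0 were under -0.3, since *Agpat1* and *Lpin3* did not pass it. Of all 7180 genes at that filter, 11.5% were under -0.3. *Lpin3* ranged from -5.22 to -1.16, *Agpat1* from -1.39 to -0.40, *Dgat1* from 0.10 to 0.66 and *Dgat2* from -0.75 to 0.003. No paired analysis was possible because each genotype has 1 array, and no array could be left out for the same reason. Low signals limit *Lpin3*, *Agpat1* and the dimmest *Agpat3* probe set.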

Other observations

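Neighbouring steps of fat metabolism give a setting for these values. Each gene of the lists below was read from its brightest probe set alone, and agreement with its other probe sets was not examined. Of 9 lipases and cofactors, 2 had a signal log ratio over 0.3 and none under -0.3, and the median was 0.24. *Ces1d*, a carboxylesterase of the lipid droplet, had 17225 in Tg and 8413 in WT (1.03), and *Lipe*, hormone-sensitive lipase, had 8123 in Tg and 5629 in WT (0.53). *Abhd6* had 0.27 and *Mgll*, which hydrolyses the monoacylglycerol that MOGAT enzymes use, had -0.25.

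Of 11 genes of de novo lipogenesis, 3 were over 0.3 and 2 under -0.3, with a median of 0.02. *Acacb*, the acetyl-CoA carboxylase at mitochondria, had 1088 in Tg and 621.2 in WT (0.81). *Slc25a1*, the mitochondrial citrate carrier, had 3211 in Tg and 5094 in WT (-0.67). *Thrsp* had 0.57 and *Acaca* 0.46. The brightest probe sets of *Scd1*, *Scd2* and *Fasn* had 0.01, -0.13 and 0.06. The study instead listed *Scd1* and *Scd2* as lower in Tg from these arrays. By real-time PCR on WAT, it reported *Scd1* and fatty acid synthase significantly lower in Tg, with *Scd2* and acetyl-CoA carboxylase tending lower. Whether these lists differ from the acyltransferases and lipins was not tested.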
